A study of Homo sapiens with 6 samples.

Results

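Integrins and laminins were examined in NCI-H1975 cells, an established line from a human lung adenocarcinoma, as 36 named genes among the 60960 features of the deposited expression table. The genes were chosen by symbol, each matched to 1 Ensembl identifier: 26 integrin genes (18 α and 8 β subunits) and 10 laminin genes (5 α, 3 β and 2 γ chains). Other laminin chain genes were not analysed here. The study compared cells carrying the label siGFPT2 (small interfering RNA against GFPT2, the hexosamine pathway enzyme; 3 libraries) with cells labelled siNC (control small interfering RNA; 3 libraries), to look for genes expressed differently. All 6 libraries are polyadenylated RNA of the same line, and almonertinib, EGF and EGFR knockdown occur in the protocol text without a treatment label on any of these 6 libraries. Nothing states that the replicates were separate cultures, so the p-values measure the spread between these libraries, which may be technical.

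Integrins are cell surface receptors made of an α and a β subunit, and neither subunit reaches the surface in quantity without its partner. They bind matrix proteins outside the cell and, through talin and kindlin, the actin cytoskeleton inside it. Laminins are secreted as trimers of an α, a β and a γ chain and form the sheet of the basement membrane, on which lung epithelium sits through integrins α3β1, α6β1 and α6β4. Because chains of both families are assembled in fixed combinations, the messenger RNA level of each chain sets which combinations a cell could make, although it does not show that the protein is made.

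Levels are given as FPKM, a fragment count scaled to the length of the gene and to the depth of the library. The scaling is meant to let genes of different length be set side by side. It depends on the length used, and some orders given below change with that length. Depth, recovered from the steps of the values, lay between 21899321 and 27234880 fragments per library. The target of the siRNA did not separate the labels: GFPT2 stood at 8.94, 7.58 and 8.72 FPKM in siGFPT2 replicates 1 to 3, against 10.1, 9.30 and 8.29 in siNC replicates 1 to 3, with a log2 fold change of -0.13 (p = 0.4, two-sided, by exact permutation of the 6 libraries, a design in which p cannot go below 0.1). In what follows siGFPT2 and siNC stand for the libraries labelled so. siGFPT2 replicate 2 and siNC replicate 3 stood apart from the other 4 libraries. Without both, the GFPT2 value was -0.14 (95% interval -0.35 to 0.08). All 6 epithelial markers looked at were above 1 FPKM, with a summed level of 1248 to 1551 FPKM in siGFPT2 and 1228 to 1737 in siNC.

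Of the 36 genes, 19 reached a mean of 1 FPKM over the 6 libraries, 8 lay between 0.1 and 1 FPKM, and 9 lay below 0.1 FPKM. The 19 were 8 integrin α, 5 integrin β, 2 laminin α, 3 laminin β and 1 laminin γ gene, and each of them rested on 158 to 26401 fragments per library. The highest FPKM was that of LAMB3, the β3 chain of epithelial laminin (chromosome 1, 209614870 to 209652466, minus strand, GRCh38, as all gene positions here), with 148, 155 and 139 FPKM in siGFPT2 and 166, 148 and 154 in siNC. ITGA3 (chromosome 17, 50055968 to 50090481, plus strand), the α subunit of the laminin receptor α3β1, followed with 108, 97.6 and 103 FPKM in siGFPT2 and 122, 113 and 89.9 in siNC. The range of LAMB3 over the 6 libraries did not touch that of ITGA3, and the groups overlapped for both genes. LAMC1, the γ1 chain found in most laminins (mean 40.8 FPKM over 6 libraries), LAMB2, the β2 chain (36.5), and ITGA5, the fibronectin receptor subunit (32.5), came next, with ranges that overlapped from gene to gene. Between ITGA5 and ITGB1 (19.04 FPKM) the ranges were separate again. Over the whole order, 29 of 35 neighbouring genes overlapped in range, so most single steps in it were within the spread of the libraries.

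**Figure D1:**
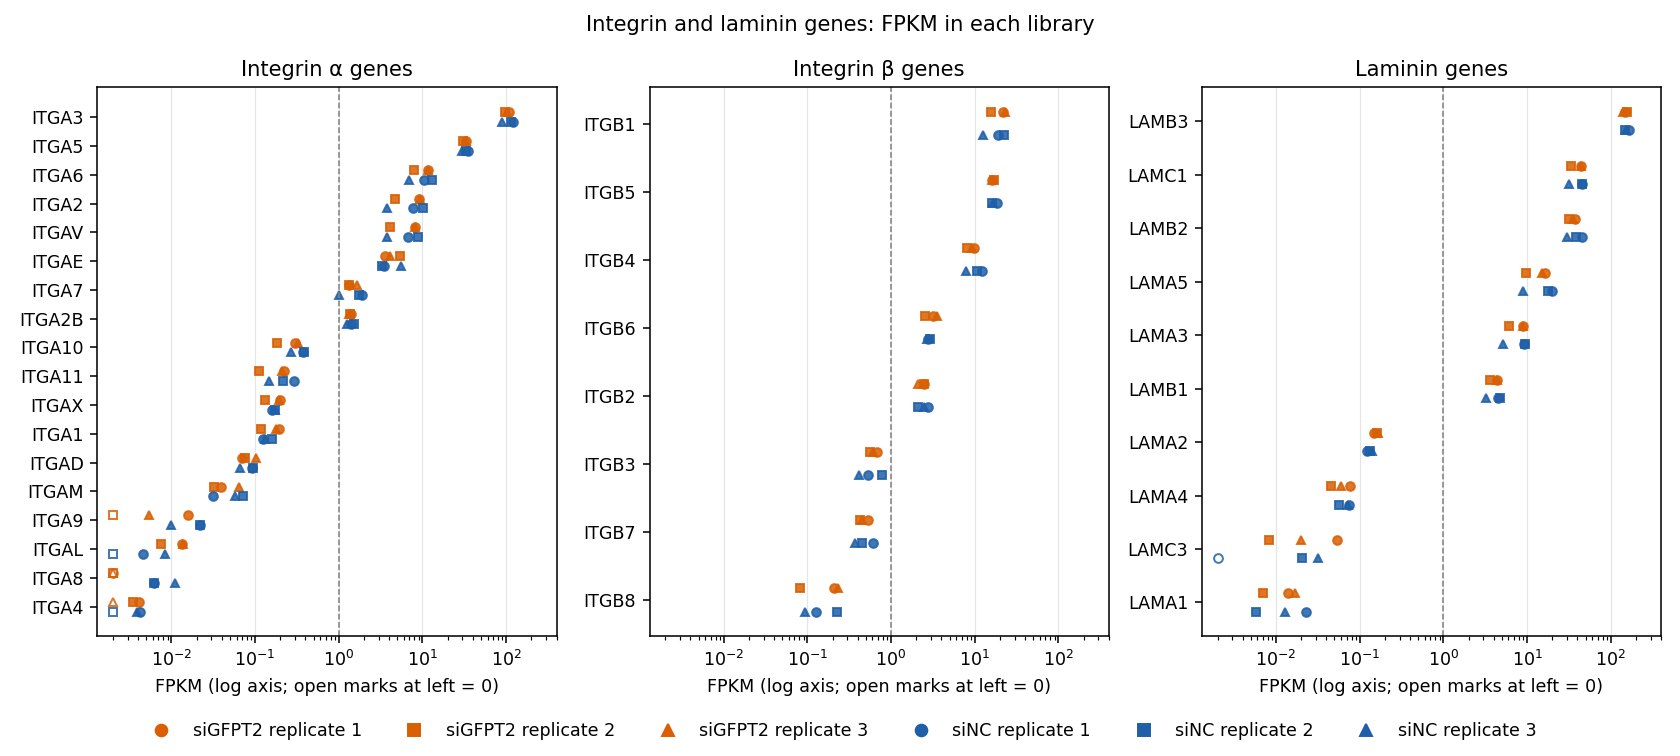
FPKM (log axis) of the 18 integrin α, 8 integrin β and 10 laminin genes, 1 mark per library, with siGFPT2 drawn above siNC in each row, the shape giving the replicate and open marks at the left standing for 0. The dashed line is at 1 FPKM; 19 genes have their mean to the right of it, led by LAMB3 and ITGA3, and the 2 groups overlap in nearly every row.

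The genes below 1 FPKM were mostly subunits of leukocyte, mesenchymal and neural integrins and the α chains of other tissues' laminins. ITGA4, the α subunit of the lymphocyte homing receptors, had 1, 1 and 0 fragments in siGFPT2 and 1, 0 and 1 in siNC. ITGA8, known from kidney mesenchyme, had 0 fragments in each siGFPT2 library and 1, 1 and 2 in siNC replicates 1 to 3. A count of 0 allows up to 3 fragments in a library (counting error only), which for ITGA8 is 0.0150 to 0.0185 FPKM, so ITGA4 and ITGA8 cannot be told from background at this depth and no fold is given. ITGAL and ITGAM, subunits of leukocyte integrins, were close to that limit, ITGAL with 3, 2 and 3 fragments in siGFPT2 and 1, 0 and 2 in siNC, and ITGAM with 5, 5 and 8 in siGFPT2 and 4, 9 and 8 in siNC. ITGA1, ITGA10 and ITGA11, the collagen receptor subunits of mesenchyme and cartilage, averaged 0.164, 0.268 and 0.181 FPKM in siGFPT2 and 0.139, 0.342 and 0.217 in siNC. LAMA1, LAMA2 and LAMA4, the laminin α chains of embryonic, muscle and vascular basement membranes, averaged 0.0126, 0.159 and 0.0611 FPKM in siGFPT2 and 0.0138, 0.132 and 0.0681 in siNC. LAMC3, the γ3 chain, averaged 0.0275 FPKM in siGFPT2 and 0.0175 in siNC, and ITGA9, a tenascin receptor subunit, 0.00714 in siGFPT2 and 0.0179 in siNC. Of 5 endothelial markers 0, and of 8 fibroblast and muscle markers 2 (COL1A1 and COL1A2), reached 1 FPKM.

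Of 24 textbook integrin pairs that the 26 subunits can form, 9 had both genes at a group mean of at least 1 FPKM, the same 9 in siGFPT2 and in siNC. They were the laminin receptors α3β1, α6β1, α7β1 and α6β4, the collagen receptor α2β1, and α5β1, αVβ1, αVβ5 and αVβ6, which bind RGD-containing ligands such as fibronectin, vitronectin and latent TGF-beta. ITGB1 takes part in 6 of the 9 and ITGAV in 3, and the leukocyte pairs of ITGB2 and ITGB7 were all outside the 9. The count was also 9 in siGFPT2 without replicate 2 and in siNC without replicate 3. With presence set at 2 FPKM the count was 8, without α7β1, and at 0.5 FPKM it was 11, with αVβ3 and αIIbβ3 added.

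Among the laminin receptors, ITGA6 is shared by ITGB1 and by ITGB4, the hemidesmosome subunit that binds plectin. ITGA6 was 11.5, 7.99 and 11.7 FPKM in siGFPT2 and 10.3, 12.8 and 6.93 in siNC. ITGB4 was 9.75, 8.17 and 9.20 FPKM in siGFPT2 and 12.3, 10.6 and 7.80 in siNC. The 2 levels lay close together, with a ratio of ITGA6 to ITGB4 between 0.835 and 1.27 over the 6 libraries, and ITGA6 was the higher in 3 of them. ITGA7, the laminin receptor subunit known from muscle, was low, at 1.34, 1.34 and 1.63 FPKM in siGFPT2 and 1.89, 1.74 and 1.01 in siNC. The ITGA3 transcript exceeded that of its partner ITGB1 4.45 to 7.17 times as FPKM, and 2.32 to 3.74 times on the scale of transcript length given below.

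ITGB1 (chromosome 10, 32900319 to 33005792, minus strand), which pairs with more α subunits than any other β gene, was 21.8, 15.5 and 23.1 FPKM in siGFPT2 and 18.8, 22.4 and 12.5 in siNC. Its 12 α partners summed to 172, 147 and 168 FPKM in siGFPT2 and 184, 181 and 136 in siNC, so that the α genes exceeded ITGB1 by 7.25 to 10.8 times in every library, and ITGA3 was 61.3% to 66.4% of the sum. This ratio depends on the gene length behind the FPKM. The smallest length that turned the ITGB1 values into whole fragments was 14561 bases, 3.85 times the 3784 bases of its longest coding transcript in GENCODE 29 (GRCh38), and a long length lowers the FPKM. On a scale of fragments per kilobase of the longest coding transcript, ITGB1 averaged 77.6 ± 15.6 in siGFPT2 and 69.0 ± 19.2 in siNC (SD, n = 3 each), and the α partners exceeded it by 3.35 to 5.15 times. ITGA5 was above ITGB1 in 6 of 6 libraries as FPKM and in 1 of 6 on the transcript scale. ITGA3 was above ITGB1 on both scales in all 6 libraries, and on the transcript scale its mean over 6 libraries (211.5) also passed that of LAMB3 (163.6). The number of pairs with both genes at 1 or more was 9 in both groups on this scale too.

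**Figure D2:**
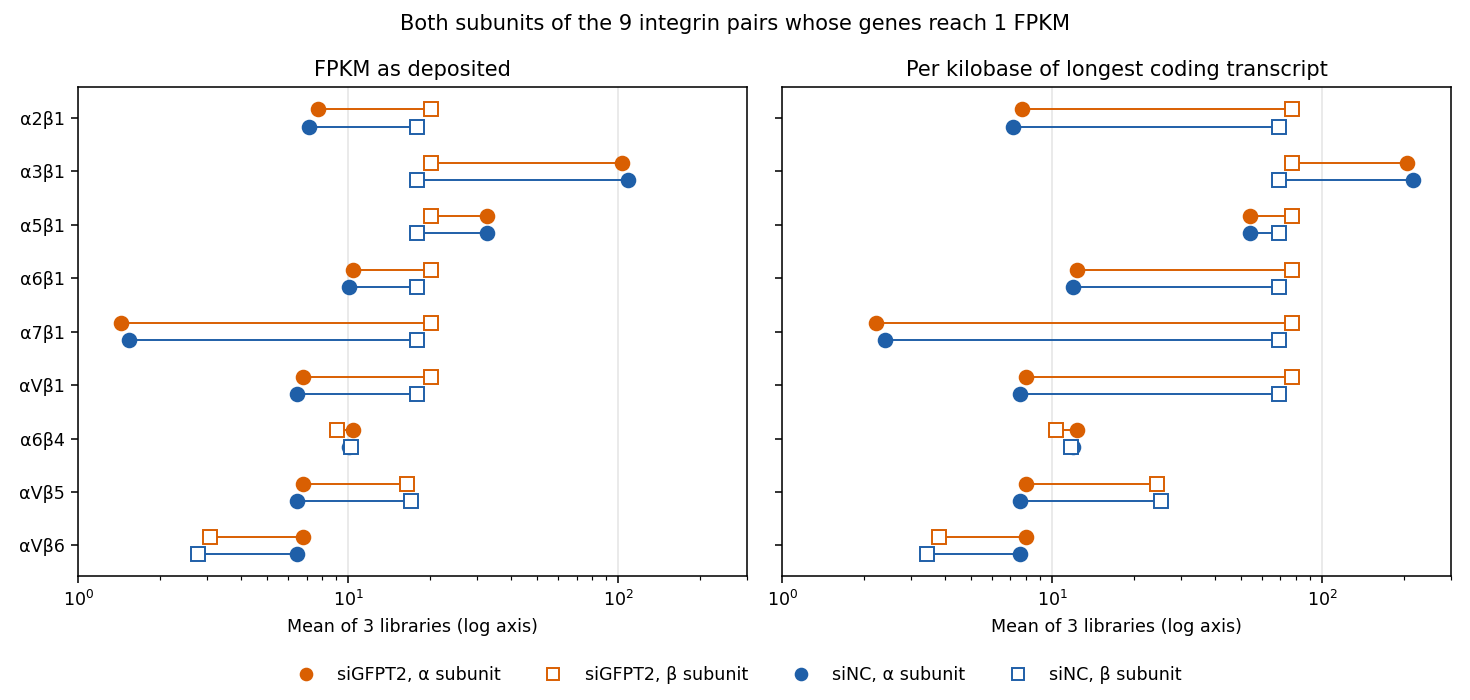
Mean level of the α subunit (filled circle) and the β subunit (open square) of the 9 integrin pairs over the 3 siGFPT2 libraries (upper line of each row) and the 3 siNC libraries (lower line), on log axes; left, FPKM as deposited, right, per kilobase of the longest coding transcript. ITGB1 moves from 20.2 and 17.9 FPKM in siGFPT2 and siNC to 77.6 and 69.0 per transcript kilobase, which turns the order of ITGA5 and ITGB1, while α6β4 stays close to even on both scales.

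The αV integrins bind RGD motifs, and αVβ6 is known in epithelium for freeing TGF-beta from its latent form. ITGAV was 8.17, 4.12 and 8.15 FPKM in siGFPT2 and 6.72, 8.96 and 3.74 in siNC, with siGFPT2 replicate 2 and siNC replicate 3 at less than the other 4 libraries. ITGB5 was steady, at 16.2, 16.9 and 16.2 FPKM in siGFPT2 and 18.3, 16.2 and 16.5 in siNC, and exceeded ITGAV 1.81 to 4.42 times. ITGB6 was 3.16, 2.56 and 3.52 FPKM in siGFPT2 and 2.73, 2.90 and 2.68 in siNC, below ITGAV in all 6 libraries. Of its exon bases in GENCODE 29, 20.6% also belong to AC092153.1 on the same strand, which is listed at 0 to 0.063 FPKM. ITGB8, another partner of αV that acts on latent TGF-beta, averaged 0.174 FPKM in siGFPT2 and 0.147 in siNC. ITGB3, the β subunit of the vitronectin and platelet receptors, averaged 0.620 ± 0.0614 FPKM in siGFPT2 and 0.575 ± 0.184 in siNC (SD, n = 3 each). Its level is uncertain, because 51.6% of its exon bases in GENCODE 29 also belong to a read-through gene (AC068234.1) that is listed at 0 in all 6 libraries, and how fragments shared by 2 genes were counted is not given in the sources used here. On the transcript scale ITGB3 averaged 0.983 in siGFPT2 and 0.912 in siNC, just under the presence level of 1.

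Some subunits reached 1 FPKM without a partner at that level. ITGAE, which binds E-cadherin on lymphocytes as αEβ7, was 3.53, 5.35 and 4.07 FPKM in siGFPT2 and 3.49, 3.33 and 5.57 in siNC, while its sole partner ITGB7 averaged 0.467 in siGFPT2 and 0.476 in siNC. ITGB7 is uncertain too, since 42.1% of its exon bases overlap ZNF740 on the opposite strand and the labels do not say whether strand was kept. ITGB2, the β subunit of the leukocyte integrins, was 2.49, 2.46 and 2.10 FPKM in siGFPT2 and 2.80, 2.13 and 2.50 in siNC, and its 4 α partners ITGAD, ITGAL, ITGAM and ITGAX averaged at most 0.173 FPKM in siGFPT2 and 0.169 in siNC. Of 7 leukocyte markers, 4 (PTPRC, CD3E, LYZ and CD68) lay under 0.1 FPKM and 3 (CD14, LCP1 and CORO1A) at 1 FPKM or more, and the list summed to 11.45 to 12.8 FPKM in siGFPT2 and 10.6 to 12.55 in siNC. PTPRC, the pan-leukocyte marker, averaged 0.00561 and 0.00776 FPKM in siGFPT2 and siNC. ITGA2B, the platelet subunit αIIb, was 1.41, 1.35 and 1.34 FPKM in siGFPT2 and 1.397, 1.51 and 1.26 in siNC. Of 5 platelet and megakaryocyte markers 1 reached 1 FPKM, GP1BA, with a mean of 1.39 FPKM over the 6 libraries. The chemokines PF4 and PPBP were listed at 0 in all 6 libraries. The list summed to 1.08 to 1.81 FPKM in siGFPT2 and 0.529 to 2.06 in siNC.

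Of 13 laminin trimers that can be built from the listed chains, 4 had all 3 genes at a group mean of at least 1 FPKM in both groups: laminins 311, 321, 511 and 521, named by their α, β and γ chain numbers. They combine LAMA3 or LAMA5, the α chains of epithelial basement membranes, with LAMB1 or LAMB2 and with LAMC1. LAMA5 was 16.4, 9.83 and 14.95 FPKM in siGFPT2 and 20.1, 17.9 and 8.85 in siNC. LAMA3 was 8.92, 6.15 and 8.85 FPKM in siGFPT2 and 9.09, 9.52 and 5.15 in siNC, and LAMA5 exceeded it 1.60 to 2.21 times. For both α genes the lowest siGFPT2 library was replicate 2 and the lowest siNC library replicate 3. LAMA3 makes a short and a long chain from separate starts, which a value per gene does not tell apart.

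LAMB2, the β2 chain, was 37.8, 31.3 and 35.8 FPKM in siGFPT2 and 45.1, 38.5 and 30.4 in siNC, and LAMB1, the β1 chain, was 4.33, 3.61 and 4.35 FPKM in siGFPT2 and 4.51, 4.77 and 3.20 in siNC. LAMB2 exceeded LAMB1 8.07 to 10 times as FPKM, and 3.03 to 3.75 times per kilobase of the longest coding transcript, because the length behind LAMB1 was 18592 bases, 3.22 times the 5766 bases of its longest coding transcript. As FPKM, LAMB1 was the lowest chain of laminins 311 and 511, at 4.10 ± 0.425 in siGFPT2 and 4.16 ± 0.841 in siNC (SD, n = 3 each). On the transcript scale LAMA3 was the lowest chain of laminin 311 in both groups, at 10.8 in siGFPT2 and 10.8 in siNC. LAMC1 was 44.4, 33.8 and 43.8 FPKM in siGFPT2 and 45.3, 45.9 and 31.4 in siNC, and the 2 β genes together were 0.919 to 1.096 times its level as FPKM and 1.23 to 1.43 times on the transcript scale, where they were above it in all 6 libraries. LAMB3 was 15.5 to 29.9 times LAMA3 as FPKM and 12.3 to 23.8 times on the transcript scale. Trimers with the β3 chain need a γ chain outside the 36 genes and were not analysed here.

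DNA sequence at the gene starts was compared with these levels for the 25 genes found in a RefSeq table of promoter windows (build GRCh38.p14; 250 bases before to 50 after the first start listed). The 4 windows below are shown because they cross a high and a near-absent level with a sparse and a dense CpG content. They belong to LAMB3 (chr1:209652376-209652675, minus strand), LAMC1 (chr1:183023170-183023469, plus strand), ITGAM (chr16:31259725-31260024, plus strand) and ITGA4 (chr2:181457136-181457435, plus strand). Each reads 5′ to 3′ on the strand of its gene, and the capitals mark CG dinucleotides.
LAMB3: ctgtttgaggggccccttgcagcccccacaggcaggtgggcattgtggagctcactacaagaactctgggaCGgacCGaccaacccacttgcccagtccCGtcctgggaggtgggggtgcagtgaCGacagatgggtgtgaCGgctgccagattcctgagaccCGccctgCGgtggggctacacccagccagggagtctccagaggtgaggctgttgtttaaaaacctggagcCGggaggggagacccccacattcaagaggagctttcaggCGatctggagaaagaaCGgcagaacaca
LAMC1: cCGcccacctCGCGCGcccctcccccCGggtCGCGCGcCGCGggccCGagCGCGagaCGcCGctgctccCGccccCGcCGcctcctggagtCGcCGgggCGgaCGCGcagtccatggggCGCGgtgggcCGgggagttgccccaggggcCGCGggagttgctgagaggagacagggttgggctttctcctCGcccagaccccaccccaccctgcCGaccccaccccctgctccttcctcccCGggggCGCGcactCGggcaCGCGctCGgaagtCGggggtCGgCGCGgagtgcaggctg
ITGAM: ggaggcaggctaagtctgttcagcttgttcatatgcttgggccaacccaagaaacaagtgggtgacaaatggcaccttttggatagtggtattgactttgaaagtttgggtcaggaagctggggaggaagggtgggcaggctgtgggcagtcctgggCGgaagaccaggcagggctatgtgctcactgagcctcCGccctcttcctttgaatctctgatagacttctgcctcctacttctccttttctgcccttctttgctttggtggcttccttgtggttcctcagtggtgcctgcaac
ITGA4: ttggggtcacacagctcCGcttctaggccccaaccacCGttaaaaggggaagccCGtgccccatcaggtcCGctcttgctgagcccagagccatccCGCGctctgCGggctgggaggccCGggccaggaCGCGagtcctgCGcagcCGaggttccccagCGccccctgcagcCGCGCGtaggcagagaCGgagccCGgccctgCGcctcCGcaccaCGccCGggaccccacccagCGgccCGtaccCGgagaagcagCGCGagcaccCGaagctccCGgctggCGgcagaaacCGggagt

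The LAMB3 window holds 10 CG dinucleotides at 152 FPKM (mean of 6 libraries) and that of LAMC1 holds 41 at 40.8 FPKM. The window of ITGAM holds 2 at 0.0493 FPKM and that of ITGA4 holds 31 at 0.00261 FPKM. These 4 were chosen for that contrast, so they show nothing of how CpG content and level go together. The ratio of observed to expected CpG had a median of 0.582 (range 0 to 0.935) over the 15 genes at 1 FPKM or more with a window, and of 0.554 (0.0950 to 0.799) over the 10 below 1 FPKM. Over all genes with a window and a level, the medians were 0.848 for 9126 genes at 1 FPKM or more and 0.406 for 9950 below it. ITGB6, at 2.92 FPKM, holds 0 CG dinucleotides in its window. The motif TGANTCA, which reads the same on both strands and is the element of AP-1 factors, was found in the windows of LAMA3, which holds 2 copies, and ITGA5, which holds 1, against 7.76% of all 27305 windows. A match is a description of the letters and not a binding site, and genes with several starts were read at the first. The windows of LAMA3 and ITGB1 belong to starts inside the gene, 183.6 and 47.56 kilobases from its 5′ end in GENCODE 29, so the 2 copies in LAMA3 do not lie at the start of its long chain.

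**Figure D3:**
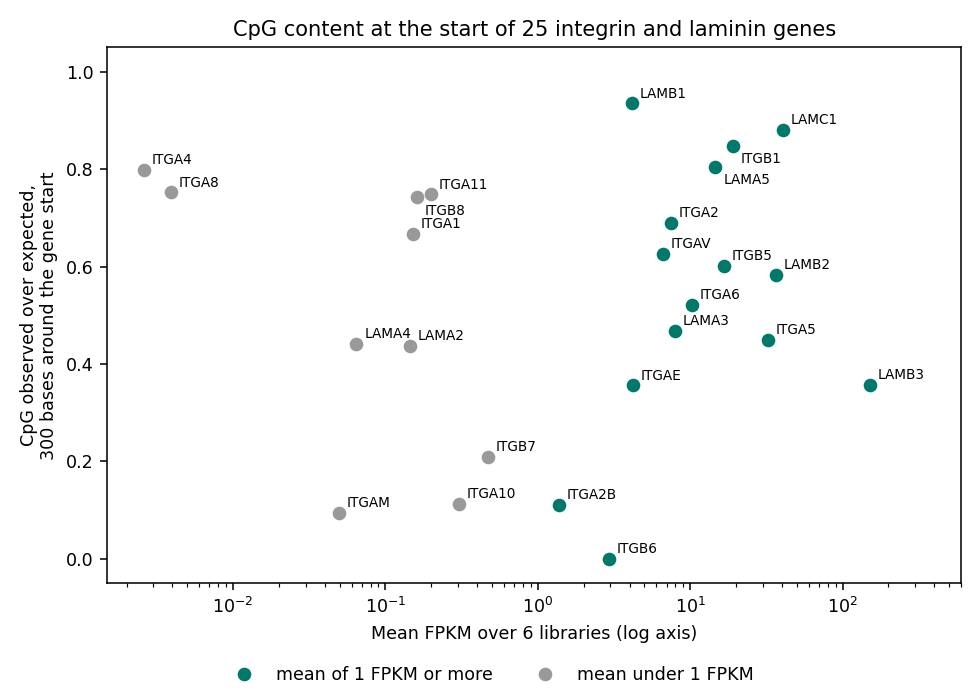
Observed over expected CpG in the 300-base window at the gene start against the mean FPKM over 6 libraries (log axis), 1 point per gene for the 25 genes with a window, green at 1 FPKM or more and grey below. Both groups of points run over most of the CpG range, with ITGA4 and LAMC1 dense and ITGAM and ITGB6 sparse.

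No tested integrin or laminin gene differed between siGFPT2 and siNC beyond the spread of the libraries. In bulk RNA a change in the number of expressing cells and a change in RNA per cell cannot be told apart. Genes with a mean of at least 1 FPKM were tested with limma, a linear model across all genes, on log2(FPKM + 0.1), with Benjamini-Hochberg adjustment of p across 12896 tested features. Of the 19 integrin and laminin genes tested, 0 passed an adjusted p of 0.05 and 0 had an unadjusted p under 0.05. Over all features 0% passed the adjusted threshold and 0.651% had an unadjusted p under 0.05 (0.326% higher and 0.326% lower in siGFPT2), so a count of 0 among 19 is near the background. The limma-voom fit on recovered fragments also called 0 and had 0 of the 19 at an unadjusted p under 0.05. Among 12896 features that fit had 23 higher and 36 lower in siGFPT2 at that level, so this 0 too is near the background. The groups were separate for 0 of the 19 genes, against 3.53% of all features (2.16% higher and 1.36% lower in siGFPT2). The 19 log2 fold changes ran from -0.16 to 0.19 with a median of -0.01, beside a median of 0.03 over all features. For 17 of the 19 genes, and for 92.8% of all features, the 95% interval lay within a 2-fold change up or down.

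Among the laminin receptors and their partners, ITGB1 had a log2 fold change of 0.19 (95% interval -0.41 to 0.78), ITGA6 of 0.08 (-0.54 to 0.69), ITGA3 of -0.06 (-0.40 to 0.27) and ITGB4 of -0.16 (-0.59 to 0.28). The widest intervals belonged to ITGA2, the collagen receptor subunit, at 0.15 (-0.84 to 1.14), and ITGAV, at 0.09 (-0.83 to 1.01), and these 2 did not exclude a 2-fold rise. ITGA2 was 9.16, 4.65 and 9.34 FPKM in siGFPT2 and 7.66, 10.03 and 3.77 in siNC, so the groups overlapped and each held 1 low library. The tightest intervals were those of ITGB5, at -0.05 (-0.29 to 0.19), ITGA5, at -0.00 (-0.25 to 0.25), and LAMB3, at -0.08 (-0.34 to 0.18). Among the laminins, LAMA5 had -0.13 (-0.95 to 0.68), LAMB2 -0.10 (-0.50 to 0.29), LAMA3 0.04 (-0.61 to 0.69), LAMB1 -0.01 (-0.44 to 0.43) and LAMC1 0.00 (-0.45 to 0.46). Each of the 19 had an adjusted p of 0.9999 by limma.

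**Figure D4:**
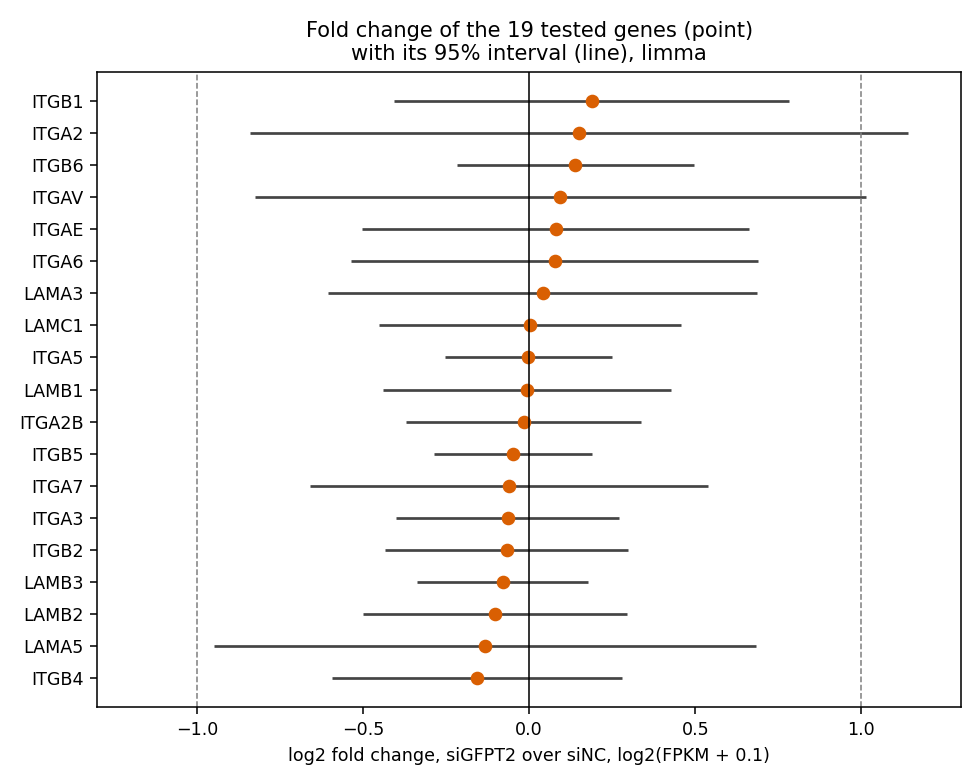
Log2 fold change of siGFPT2 over siNC (point) with its 95% interval (line) from limma for the 19 integrin and laminin genes tested, ordered by value, with dashed lines at a 2-fold change. All 19 intervals cross 0, and those of ITGA2 and ITGAV reach past the line on the right.

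The 17 genes below 1 FPKM were outside this test. In 2 of them the groups did not overlap: LAMA2 was higher in siGFPT2, with 0.149, 0.163 and 0.165 FPKM in siGFPT2 and 0.122, 0.132 and 0.142 in siNC, and ITGA8, at the background level given above, was lower. Of the 24085 features above 0 with a mean under 1 FPKM, 2.53% were separate with siGFPT2 higher and 3.31% with siGFPT2 lower. LAMA2 rested on 35, 46 and 38 fragments in siGFPT2 and 28, 30 and 36 in siNC, and with no filter on low values LAMA2 gave a log2 value of 0.16 (-0.33 to 0.65; adjusted p = 1 by limma). These 2 genes are singled out after their values were seen.

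What the integrin and laminin genes shared across libraries did not follow the labels. siGFPT2 replicate 2 and siNC replicate 3 were the 2 lowest of the 6 libraries for 14 of the 19 genes (73.7%), beside 35.4% of all features tested, and the 2 highest for 1 (5.3%), beside 29.8%. Among 65 tested genes of lists of adhesion partners, described below, they were the 2 lowest for 58.5% and the 2 highest for 20%. The 14 included ITGA2, ITGAV, ITGB1, LAMA3 and LAMA5, and the exception at the other end was ITGAE. LAMB3, ITGB2, ITGB5 and ITGA2B showed neither order. The median deviation of the 19 genes from their own mean was 0.06, -0.18 and 0.09 on the log2 scale in siGFPT2 replicates 1 to 3, and 0.13, 0.15 and -0.28 in siNC replicates 1 to 3. Over all features the same medians lay between -0.04 and 0.05. In siGFPT2 replicate 2 and siNC replicate 3 the deviation fell with gene length, by 0.18 and 0.29 on the log2 scale per doubling of length over the 19 genes and by 0.06 and 0.08 over all features, while in the other 4 libraries it rose with length, by 0.08 to 0.17 over the 19. The correlation with log2 length over the 19 genes, a description across genes that share libraries, was -0.42 and -0.49 in these 2 libraries and 0.26 to 0.43 in the others. The tested genes are long, with a median length of 6869 bases beside 4504 over all features tested.

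**Figure D5:**
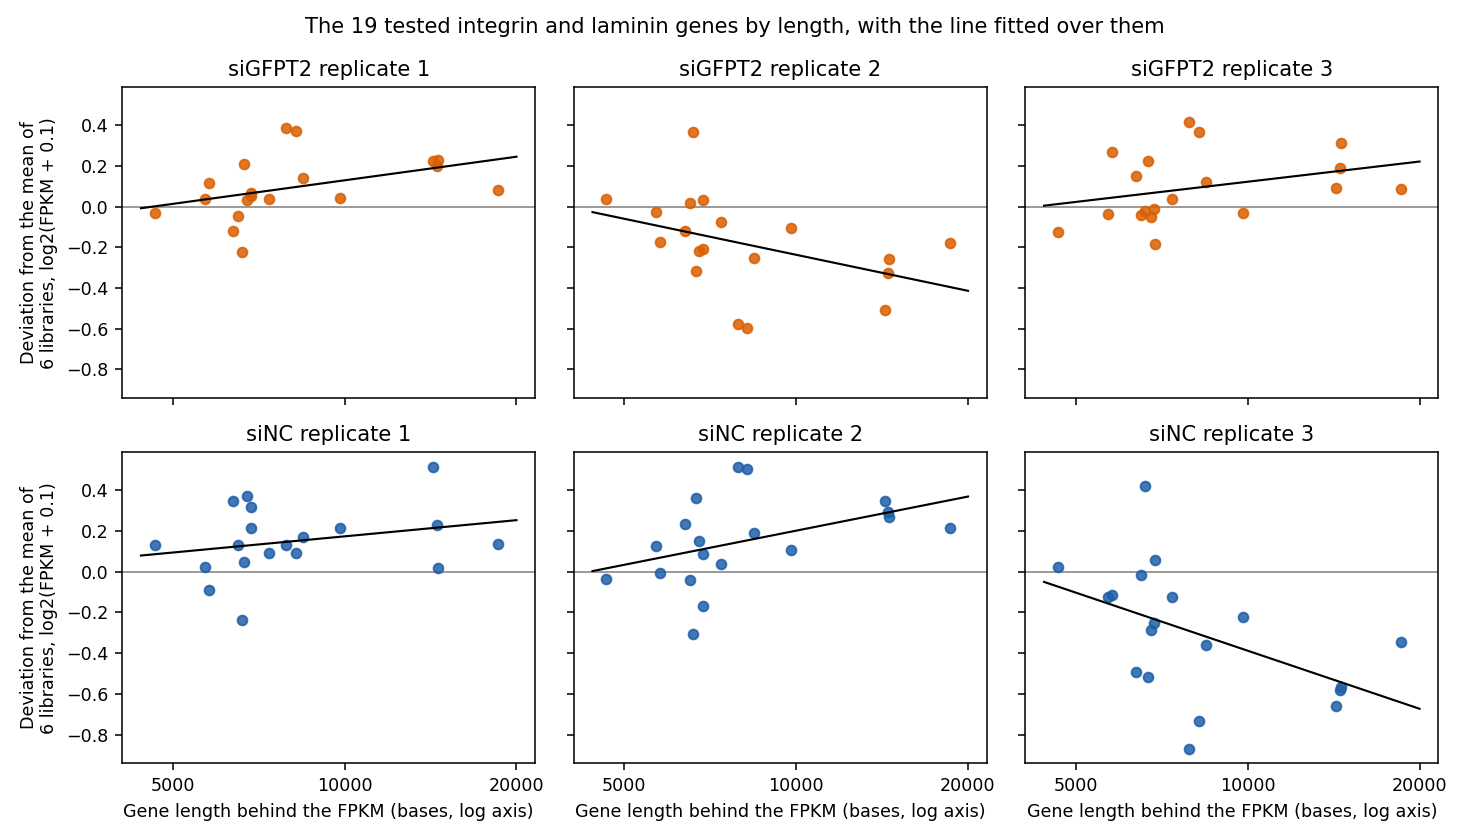
Deviation of each of the 19 tested genes from its mean over 6 libraries (log2 FPKM + 0.1) against the gene length behind the FPKM (log axis), 1 panel per library, siGFPT2 in the upper row and siNC in the lower, with the line fitted over the 19 points. The line falls in siGFPT2 replicate 2 and siNC replicate 3 and rises in the other 4 libraries.

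Without both of these libraries, in a fit of 2 against 2, 0 of 19 genes passed the adjusted threshold and 2, both lower in siGFPT2, had an unadjusted p under 0.05. In that fit 5.74% of all features had an unadjusted p under 0.05 (1.83% lower in siGFPT2), and the 2 genes are not read as a result. The 19 log2 fold changes then ran from -0.28 (ITGA7) to 0.24 (ITGB6), with a median of -0.07. LAMA5 then had a log2 fold change of -0.27 (-0.50 to -0.04) and ITGB4 of -0.27 (-0.52 to -0.02), each with an adjusted p of 0.7236 by limma, against -0.13 and -0.16 with all 6. LAMA5 was then 16.4 and 14.95 FPKM in siGFPT2 and 20.1 and 17.9 in siNC. With the slope of each library on length as a covariate, ITGB1 had 0.19 (0.04 to 0.34; adjusted p = 0.6945 by limma), and was the 1 of 19 genes with an unadjusted p under 0.05, beside 5.46% of all features. The part of length or RNA quality in these values was not tested.

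Genes that act with integrins and laminins gave the same count of 0 in 4 lists. Of 32 tested activators and adaptors of adhesion out of 40 listed, 0 passed the test over all features, with a median log2 fold change of 0.01. LPXN, a paxillin relative, was 2.87, 2.89 and 3.05 FPKM in siGFPT2 and 2.79, 2.59 and 2.47 in siNC (log2 0.16, -0.12 to 0.45), and RAP1A, a GTPase that activates integrins through talin, had 0.19 (-0.21 to 0.59). The most abundant of the list, FLNA, the actin crosslinker that binds β tails, averaged 405 ± 67.5 FPKM in siGFPT2 and 441 ± 148 in siNC (SD, n = 3 each). Of 7 tested hemidesmosome and basement membrane genes out of 16, 0 passed, with a median of -0.06; CD151, the tetraspanin partner of α3β1 and the most abundant, had -0.07 (-0.46 to 0.32), and COL7A1, the anchoring fibril collagen, had -0.06 (-0.35 to 0.23).

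Of 14 tested other laminin receptors and integrin-associated genes out of 15, 0 passed, with a median of 0.02. BCAM, the receptor of laminin α5, was 46.1, 49.3 and 45.4 FPKM in siGFPT2 and 55.1, 49.6 and 50.8 in siNC, the lower group being siGFPT2 without overlap (log2 -0.14, -0.38 to 0.09; adjusted p = 0.9999 by limma). CD47, the integrin-associated protein, had 0.15 (-0.16 to 0.46), and RPSA, a ribosomal protein also described as a laminin receptor and the most abundant of the list, had 0.07 (-0.50 to 0.64). Of 12 tested other integrin ligands out of 19, 0 passed, with a median of 0.01. TGFB1, whose latent form αVβ6 binds, was 12.9, 14.2 and 12.5 FPKM in siGFPT2 and 14.7, 13.9 and 16.0 in siNC (-0.17, -0.43 to 0.09), MFGE8, an RGD protein, had -0.10 (-0.35 to 0.14), and TGFBI, a matrix protein with an RGD motif and the most abundant, averaged 535 ± 22.7 FPKM in siGFPT2 and 534 ± 61.05 in siNC (SD, n = 3 each). Over the 65 tested genes of the 4 lists, the groups were separate for 2, LPXN and BCAM, against 3.53% of all features. By limma 0 of the 65 had an unadjusted p under 0.05, beside 0.651% of all features. Without siNC replicate 3, 2 of the 65 were lower in siGFPT2 at that level, beside 0.789% of all features, and without siGFPT2 replicate 2 as well 6 were lower, beside 1.83%. With the length covariate 1 of the 65 was higher and 1 lower, beside 5.46% of all features in either direction. Adjusted over all features, 0 of the 65 passed in each of these fits.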

How the data were processed

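Polyadenylated RNA of 6 NCI-H1975 libraries was sequenced in pairs, per the labels' protocols. The authors deposited 1 table of FPKM values per gene and library (60960 features); HISAT2, featureCounts and DESeq2 are named in the submitters' processing notes, without versions or roles, and build and annotation were not given in the sources used here. Symbols came from a table of gene names, which matched all 36 genes. The members, lists and alternatives were chosen with earlier results of these data known.

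Fragments were recovered from the FPKM steps. The commonest step among low genes, with exon lengths of GENCODE 29 (GRCh38), gave each library's depth. Of 36981 features above 0, 53.9% came out whole (tolerance 0.0001) with that length, as did 7 of the 36 genes; for the others the smallest length that gave whole fragments in all 6 libraries was taken, which can be too short and then understates the fragments. The recovered fragments summed to 99.77% to 99.81% of the depth.

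The comparison used limma 3.58.1 in R 4.3.3 (lmFit, eBayes with trend, two-sided, no covariate) on log2(FPKM + 0.1). The added 0.1 understates the fold of low genes. Features whose mean reached 1 FPKM were kept. The model was tested on simulated counts. These were drawn without a library shift linked to gene length, so they do not cover the 2 libraries that stood apart. Pairs and trimers come from hand-written textbook lists, and a gene counts as present at a group mean of at least 1 FPKM. Named genes are all 36 members, GFPT2 and, from each adhesion list, the most abundant gene and the 2 with the smallest p, since 0 were called. Alternatives were another pseudocount, filter or scaling, the length slope as a covariate, limma-voom with TMM on the recovered fragments, a replicate block, and leaving libraries out. The scale per longest coding transcript (GENCODE 29) was chosen after seeing the data. A further marker of the leukocyte list is not reported here.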

Additional observations from a re-analysis of the deposited data

How the results depend on the processing

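Under each of the 16 alternatives tried, limma or limma-voom called 0 of the integrin and laminin genes, 0 genes of the adhesion lists and 0 of all features, with adjusted p between 0.6945 and 1 for single integrin and laminin genes. The direction of an uncalled fold change was not stable: 3 of the 19 genes (ITGB4 and LAMB3 below 0, ITGB6 above 0) had the same sign in every alternative that tested them (ITGB6 is below the minimum mean of 5 FPKM and has 15 of the 16), and 16 changed sign in at least 1, up to 9 of them without siNC replicate 1 and 6 without siNC replicate 3. Median centring turned 2 and quantile normalization 1. The median of the 19 was -0.01, and -0.18 to 0.06 with 1 library left out. The GFPT2 fold change kept its sign in all 16. The number of integrin pairs was 9 in both groups, 8 with presence at 2 FPKM and 11 at 0.5 FPKM, and the number of laminin trimers was 4 in both groups in each of these settings. With a replicate block limma called 0 of the 19 genes. Whether the replicate numbers pair the samples cannot be told from these values. Deviations of same-numbered libraries from their group means correlated at 0.473, -0.719 and -0.57 for numbers 1 to 3. siGFPT2 replicate 2 correlated best with siNC replicate 3 (0.792). The 2 libraries that stood apart carry different replicate numbers. With 1 library apart in each group, the others deviate from the group mean the opposite way. The signs therefore follow these 2 libraries and do not decide whether the samples are paired. Depth limits the genes below 1 FPKM, with 0 to 108 fragments per library.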
